A study of Homo sapiens with 6 samples.

Results

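Toll-like receptors are pattern recognition receptors, and the 10 genes described here are TLR1 to TLR8, CD14 and MYD88. They were chosen by gene name, as 8 receptors of the family with the coreceptor CD14 and the shared adaptor MYD88, and all 10 were among the 35424 features of the deposited expression table. The RNA-seq data came from THP-1 cells, an established leukaemia line of human monocytic origin that serves as a model of monocytes, and the study sequenced them, beside ChIP-seq not analysed here, to look at how phase separation of the transcription factor C/EBPα bears on its function in transcription. The libraries comprised 3 of untreated THP-1 cells and 3 of THP-1 cells treated with PMA, a phorbol ester and activator of protein kinase C under which the line takes on an adherent, macrophage-like form. Both groups came from the same line and are labelled as wild type. The dose and the time of PMA are not given for these libraries in the sources used here, and the labels do not say whether the libraries of a group came from separate cultures, although the study describes its RNA-seq as 3 independent experiments. The p-values measure the spread between these libraries. One line stands in for monocytes, and in bulk RNA fewer cells expressing a gene and less of its RNA per cell cannot be told apart.

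TLRs sense microbial molecules through extracellular repeats and signal through a cytoplasmic domain. TLR1, TLR2, TLR4, TLR5 and TLR6 sit at the cell surface and recognise lipopeptides, lipopolysaccharide and flagellin, whereas TLR3, TLR7 and TLR8 sit in endosomes and recognise RNA. All of them except TLR3 signal through MYD88, which recruits IRAK kinases and leads to activation of NF-kB. In monocytes and macrophages these receptors start the production of inflammatory cytokines.

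Estimated counts summed to between 61547700 and 88227830 per untreated library and to between 64361886 and 65698834 per PMA library. Among 11 markers of the monocytic line 10 had a mean FPKM (fragments scaled to transcript length and to the size of the library) of at least 1 in each group. The summed FPKM of the 11 markers was 1171 to 1384 untreated and 526 to 623 after PMA. The list holds MPO and ELANE beside CD68 and ITGAM, and its sum does not show how any single marker changed. B cell markers, 4 of 5 of them in the table, summed to 2.13 to 2.66 FPKM untreated and 7.11 to 8.15 after PMA. The 1 T cell marker of 5 in the table did not pass 0.0394 FPKM in any library. Fibroblast and epithelial markers, 5 of 6 in the table, summed to 0.664 to 4.76 FPKM untreated and 0.988 to 3.16 after PMA. The sum was at most 1.31 FPKM for granulocyte markers and 0.224 FPKM for erythroid and megakaryocyte markers. Their part in the results was not tested. The closest pair of libraries within a group was PMA replicates 2 and 3, and of the untreated libraries replicate 3 had the fewest counts.

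After PMA treatment, the FPKM of 9 of the 10 genes lay above the untreated libraries in every library, and the exception was TLR8, which was close to the limit of detection. The same complete separation upwards was seen for 24.6% of all genes with an FPKM above 0. With 3 libraries against 3 the exact two-sided permutation test cannot go below p = 0.1, which was its value for each of the 9. For the main test, the quasi-likelihood test of edgeR was run on the counts of the 12947 genes that reached an FPKM of 1 in 3 or more libraries, with calls at an adjusted p under 0.05. TLR1, TLR2, TLR6 and MYD88 entered it, and all 4 were higher after PMA, against 32.7% of genes called higher and 32.8% called lower. TLR1 reached the minimum through the PMA libraries alone, so that it had to differ to be tested. The other 6 genes were below the minimum. A wider test, with edgeR's own filter on low counts, took in 9 of the 10 and called 8 of them higher and none lower, against 25.9% and 25.7% of its 20755 genes. With no filter 7 of the 10 were called higher, against 13.9% of all genes, and with DESeq2 also 7, against 21.5%. Of the 8, TLR7 entered that test with no untreated library above its minimum of 0.153 CPM (counts scaled to the library total) and TLR3 with 1 untreated library. Fold changes in the wider test were lower than in the main test by a median of 0.12 on the log2 scale over the genes they share, which turned the direction of no member.

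**Figure D1:**
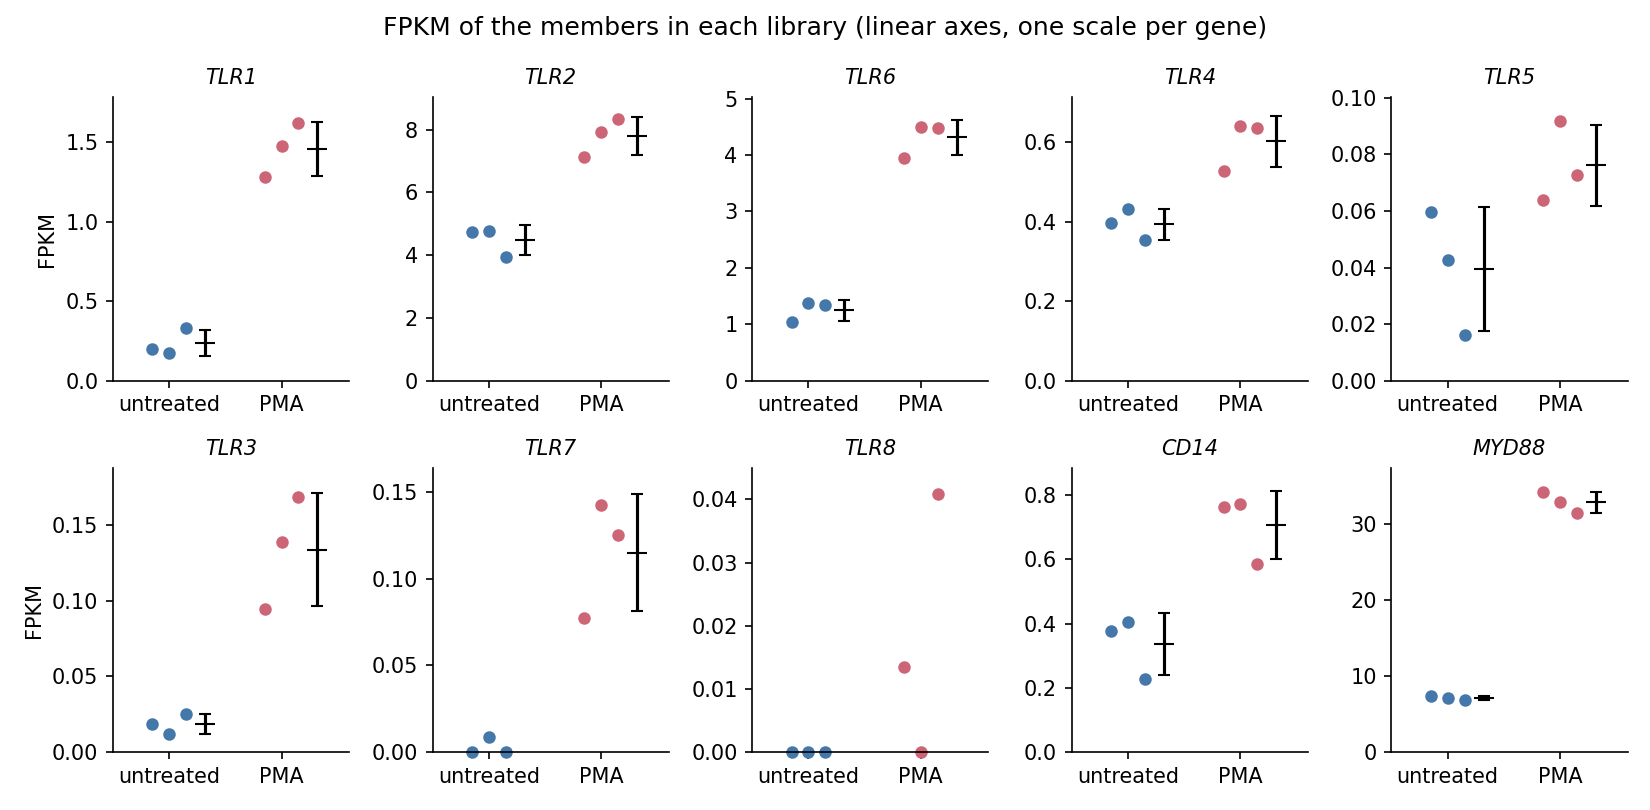
FPKM of each of the 10 genes in every library, on a linear axis with its own scale for each gene, with untreated libraries in blue and PMA libraries in red and, where no library was at 0, the mean and SD (n = 3) in black. All 3 red points lie above all 3 blue points in every panel except that of TLR8, where 1 PMA library was at 0.

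TLR2 is the lipopeptide receptor that pairs with TLR1 or TLR6, and it was the most abundant TLR of the 8 in both groups. TLR2 (ENSG00000137462, chr4:153684070-153705259, plus strand, hg38) had FPKM levels of 4.75, 4.77 and 3.93 in untreated replicates 1 to 3 and of 7.13, 7.91 and 8.33 in PMA replicates 1 to 3. The groups did not overlap, and untreated replicate 3 was the lowest of the 6. The mean rose from 4.48 ± 0.481 to 7.79 ± 0.611 FPKM (SD, n = 3 each), which is 1.74-fold, and the log2 fold change by edgeR was 0.83 with a standard error (SE) of 0.10 (adjusted p = 0.000215). It was the smallest rise of the 4 genes in the main test.

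TLR1 joins TLR2 to sense triacylated lipopeptides of bacteria. TLR1 (ENSG00000174125, chr4:38790677-38805578, minus strand) had FPKM levels of 0.200, 0.176 and 0.331 untreated and of 1.28, 1.48 and 1.62 after PMA. Every PMA library was above every untreated one, and the untreated libraries were all well below an FPKM of 1. The mean rose 6.18-fold, from 0.236 ± 0.0835 to 1.46 ± 0.170 FPKM (SD, n = 3 each), and the log2 fold change by edgeR was 2.65 (SE 0.28, adjusted p = 8.54e-05), the largest of the 4.

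TLR6 joins TLR2 to sense diacylated lipopeptides, and its gene lies next to TLR1. TLR6 (ENSG00000174130, chr4:38822897-38856817, minus strand) had FPKM levels of 1.04, 1.37 and 1.34 untreated and of 3.96, 4.49 and 4.49 after PMA. The groups were far apart, with the lowest PMA library well above the highest untreated one. The mean rose 3.45-fold, from 1.25 ± 0.185 to 4.31 ± 0.308 FPKM (SD, n = 3 each), with a log2 fold change by edgeR of 1.82 (SE 0.14, adjusted p = 1.58e-05). TLR1 and TLR6 share 57 exonic bases, 1.26% of those of TLR1 and 0.832% of those of TLR6 in GENCODE v44, so few reads could be assigned to either.

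The 2 partners of TLR2 had larger fold changes than TLR2 itself, and the make-up of the summed TLR1 to TLR8 transcripts differed between the groups. The summed FPKM of TLR1 to TLR8 in untreated replicates 1 to 3 was 6.46, 6.82 and 5.995, and in PMA replicates 1 to 3 it was 13.1, 14.9 and 15.5. TLR2 made up 73.5%, 70.0% and 65.6% of this sum untreated and 54.2%, 53.1% and 53.8% after PMA. TLR6 made up 16.1%, 20.2% and 22.3% untreated and 30.1%, 30.2% and 29.0% after PMA. For both genes the shares of the groups did not overlap. The share of TLR1 was 2.59% to 5.52% untreated and 9.74% to 10.5% after PMA. The ratio of TLR2 to TLR6 in FPKM was 3.66 ± 0.840 untreated and 1.81 ± 0.048 after PMA (SD, n = 3 each, exact permutation p = 0.1, the smallest possible). The ratio of TLR6 to TLR1 was 5.67 ± 1.92 and 2.97 ± 0.172, and its groups did not overlap either (exact permutation p = 0.1). TLR9 is not in the sum, so the shares are not those of all TLRs. The ratio of TLR9 to TLR2 was 0.991 ± 0.112 untreated and 0.623 ± 0.147 after PMA (SD, n = 3 each). The values of TLR9 are uncertain, as described with the other TLRs.

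**Figure D2:**
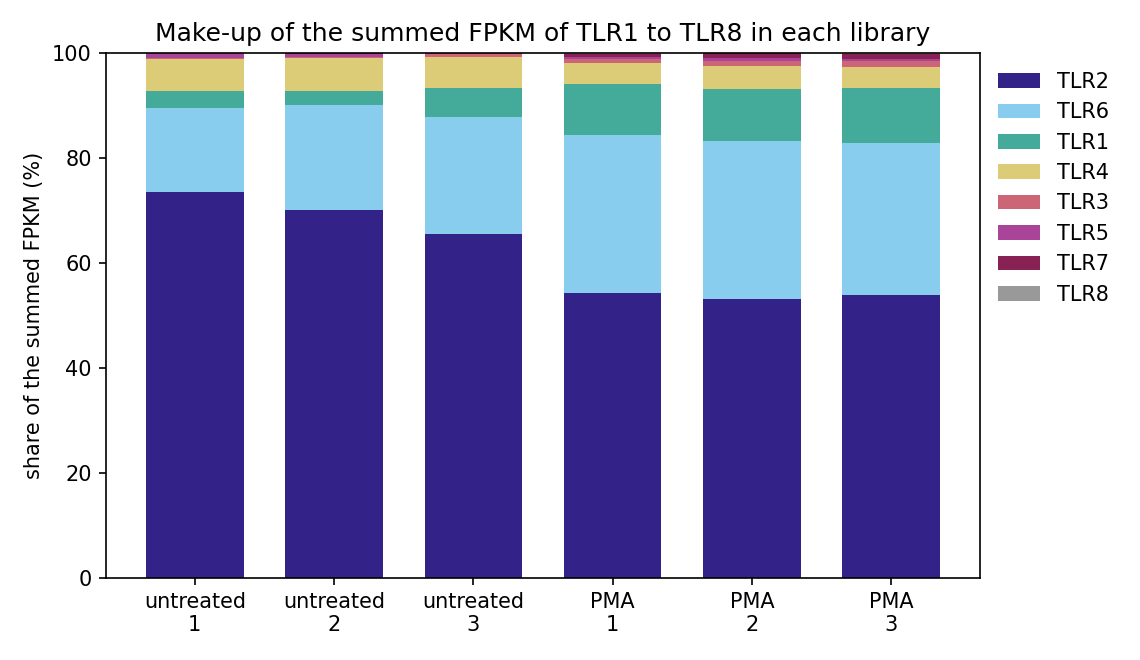
Share of each of the 8 TLR genes in their summed FPKM, in percent, as 1 stacked bar for each library. TLR2 fills 65.6% to 73.5% of the bar in untreated libraries and 53.1% to 54.2% in PMA libraries, and TLR6 and TLR1 take up most of the difference.

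TLR4 and CD14 belong to the lipopolysaccharide receptor, in which CD14 hands the ligand to TLR4 and its partner MD-2. TLR4 (ENSG00000136869, chr9:117704175-117715775, plus strand) had FPKM levels of 0.396, 0.431 and 0.354 untreated and of 0.529, 0.641 and 0.637 after PMA. The groups did not overlap but lay close together, and the fold of the means was 1.53. In the wider test the log2 fold change was 0.52 (SE 0.15, adjusted p = 0.0212 by edgeR). This call was lost without untreated replicate 3 (adjusted p = 0.0581 by edgeR), PMA replicate 2 (0.0779) or PMA replicate 3 (0.0727). TLR4 shares 5.11% of its exonic bases with an unnamed protein-coding gene on the same strand.

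CD14 (ENSG00000170458, chr5:140631728-140633672, minus strand) had FPKM levels of 0.377, 0.405 and 0.227 untreated and of 0.765, 0.774 and 0.585 after PMA. These were 25 to 61 estimated counts per untreated library and 65 to 87 per PMA library, although CD14 is a textbook marker of monocytes. The mean FPKM was 2.11-fold higher after PMA, and the wider test gave a log2 difference of 0.96 (SE 0.34, adjusted p = 0.0445 by edgeR). The call was lost without any 1 of the 6 libraries (adjusted p between 0.0585 and 0.123 by edgeR), with no filter (0.0859) and with DESeq2 (0.0714). The ratio of TLR2 to TLR4 in FPKM was 11.4 ± 0.530 untreated and 13.0 ± 0.578 after PMA (SD, n = 3 each, exact permutation p = 0.1).

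LY96, which encodes MD-2, was scarcely covered. It held 5, 0 and 0 estimated counts untreated and 26, 10 and 11 after PMA, too few for the main test. The wider test called LY96 higher, by 3.29 on the log2 scale (SE 1.19, adjusted p = 0.0482 by edgeR). This call was lost with no filter (adjusted p = 0.128 by edgeR) and with DESeq2 (0.0567). TLR4, CD14 and LY96 were all below 1 FPKM in every library, whereas MYD88 and TLR2 were above it in every library.

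TLR5, the flagellin receptor, was low in every library and was called in no fit. TLR5 (ENSG00000187554, chr1:223109404-223143248, minus strand) had FPKM levels of 0.0598, 0.0425 and 0.0162 untreated and of 0.0638, 0.0919 and 0.0726 after PMA. The lowest PMA library was just above the highest untreated library. The wider test gave a log2 difference of 0.86 (SE 0.53) that was not called (adjusted p = 0.206 by edgeR). Of the counts from 3 to 22, 37.2% to 39.1% per library were multiples of 4, more than an even spread would give. Most counts of TLR5 were not such multiples, and the unit of the counts could not be settled. If 4 counts stand for 1 read pair, TLR5 rests on 19 pairs untreated and 30 after PMA. The ratio per library size is then 1.86, with an exact 95% interval of 1.01 to 3.49. There are no molecular identifiers on the reads, so such intervals hold the counting error and nothing else.

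Among the members, the endosomal receptors TLR3, TLR7 and TLR8 were at the bottom of the range in untreated cells. TLR9, which is endosomal but not a member, had an uncertain mean of 4.41 FPKM untreated. Of TLR3, TLR7 and TLR8, TLR3 was the best covered after PMA. It is the receptor for double-stranded RNA and signals through the adaptor TICAM1 (TRIF). TLR3 (ENSG00000164342, chr4:186068911-186088044, plus strand) had FPKM levels of 0.0182, 0.0117 and 0.0251 untreated and of 0.0944, 0.139 and 0.1685 after PMA. The lowest PMA library was well above the highest untreated one. The fold of the means was 7.30, and the wider test gave a log2 fold change of 2.76 (SE 0.47, adjusted p = 0.0015 by edgeR). Taken as 8 and 51 read pairs, the ratio was 7.49 with an exact 95% interval of 3.53 to 18.3.

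TLR7 and TLR8 are neighbouring genes on chromosome X that encode receptors for single-stranded RNA. TLR7 (ENSG00000196664, chrX:12867072-12890361, plus strand) held 0, 4 and 0 estimated counts untreated and 28, 50 and 44 after PMA. In FPKM the PMA libraries were at 0.0776, 0.143 and 0.125, and the single untreated library with counts was at 0.00843. The wider test called it higher (adjusted p = 0.00326 by edgeR), but its fold rests on 4 estimated counts against 122. If 4 counts stand for 1 read pair, these are 1 pair against 30. The ratio is then 35.3 with an exact 95% interval of 5.86 to 1439. The fitted log2 fold change moved from 5.00 to 8.36 without untreated replicate 2, the only untreated library with counts, and is no measure of its size.

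TLR8 (ENSG00000101916, chrX:12906620-12923169, plus strand) held 4, 0 and 12 counts in PMA replicates 1 to 3 and none in untreated cells. With 4 counts taken as 1 read pair, a total of 0 in the untreated group allows up to 12 counts. The 16 counts after PMA were hardly above what the depth can show, and no difference was detectable (adjusted p = 0.136 with no filter by edgeR).

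MYD88 was the most abundant of the 10 genes in both groups and had the smallest adjusted p of the 4 genes in the main test. MYD88 (ENSG00000172936, chr3:38138478-38143024, plus strand) had FPKM levels of 7.42, 7.10 and 6.83 untreated and of 34.2, 32.95 and 31.5 after PMA. The libraries of each group were close together, and the groups were far apart. The mean rose 4.62-fold, from 7.12 ± 0.296 to 32.9 ± 1.38 FPKM (SD, n = 3 each), with a log2 fold change by edgeR of 2.24 (SE 0.07, adjusted p = 2.82e-07). The fold change of MYD88 was larger than that of TLR2, the most abundant of the 8 TLRs among the members. The ratio of MYD88 to TLR2 in FPKM was 1.596 ± 0.128 untreated and 4.25 ± 0.517 after PMA (SD, n = 3 each, exact permutation p = 0.1).

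**Figure D3:**
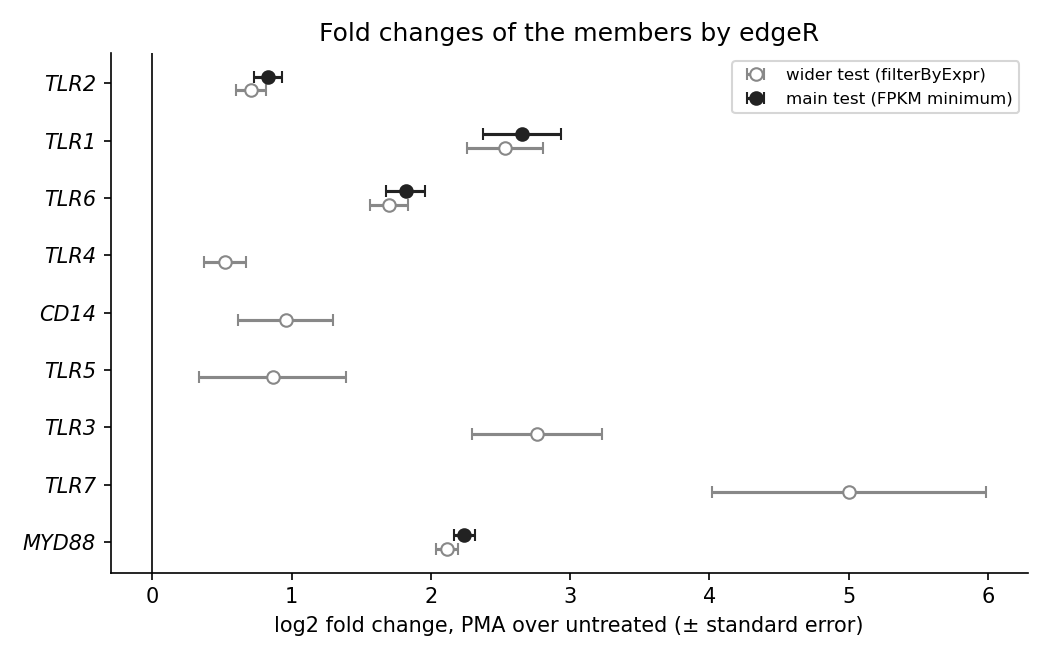
Log2 fold change of PMA over untreated libraries by edgeR with its standard error, for the 9 genes with a value (filled, main test; open, wider test). MYD88, TLR1 and TLR6 lie at 1.82 or more in the main test with narrow bars, TLR2 at 0.83, and the bars of TLR7 and TLR5 are the widest.

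Promoter windows were looked up in RefSeq (GRCh38.p14), from 250 bases before to 50 bases after each gene's start, and were found for 8 of the 10 genes. The starts are those of RefSeq, which for MYD88 and TLR3 lie downstream of the 5′ ends in the deposited table. The windows of MYD88 and TLR3 are printed because they are the 2 of 8 that hold the core of the interferon-stimulated response element (ISRE), which is GAAA, any 2 bases and GAAA, the element bound by IRF factors, 2 of which are described with the transcription factors. Both are read 5′ to 3′ on the strand of the gene with the match in capitals. The MYD88 window is chr3:38138411-38138710 and the TLR3 window chr4:186068906-186069205, both on the plus strand.
MYD88: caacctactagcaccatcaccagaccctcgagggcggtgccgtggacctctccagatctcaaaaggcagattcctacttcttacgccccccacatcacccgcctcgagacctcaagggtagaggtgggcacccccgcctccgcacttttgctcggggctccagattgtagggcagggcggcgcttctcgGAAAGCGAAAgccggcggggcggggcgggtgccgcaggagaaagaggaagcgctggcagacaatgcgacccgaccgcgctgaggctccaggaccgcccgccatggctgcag
TLR3: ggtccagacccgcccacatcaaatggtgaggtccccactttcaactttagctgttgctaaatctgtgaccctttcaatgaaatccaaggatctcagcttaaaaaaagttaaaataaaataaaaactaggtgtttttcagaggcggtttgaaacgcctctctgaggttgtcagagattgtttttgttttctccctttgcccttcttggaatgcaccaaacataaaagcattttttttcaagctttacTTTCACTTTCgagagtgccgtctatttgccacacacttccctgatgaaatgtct
In MYD88 the match begins 61 bases before the start on the strand of the gene, and in TLR3 it is on the opposite strand and its first base lies 4 bases before the start. Of all 35116 promoter windows of this length 3.57% held the ISRE core on either strand. The STAT element GAS (TTCNNNGAA) was found in 3 of the 8 windows, those of CD14, MYD88 and TLR3, against 7.66% of all windows, and in MYD88 it overlaps the ISRE core. The PU.1 core (GAGGAA) was found in 4 of 8, those of CD14, MYD88, TLR4 and TLR6, against 27.9%. The AP-1 element (TGANTCA) was found in CD14 alone, against 7.71%, and the NF-kB element in none of the 8, against 11.3%. Each motif was searched on both strands, and a match is a description of the letters and not evidence of binding.

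The order of the levels in FPKM was MYD88, TLR2, TLR6, TLR4, CD14, TLR1, TLR5, TLR3, TLR7 and TLR8 in the untreated libraries. TLR4 and CD14, CD14 and TLR1, TLR5 and TLR3, and TLR7 and TLR8 overlapped there and were not separated. After PMA the order was MYD88, TLR2, TLR6, TLR1, CD14, TLR4, TLR3, TLR7, TLR5 and TLR8. TLR1 was now above CD14 and TLR4 in every library, and TLR3 and TLR7 had moved above TLR5, although TLR7 overlapped both TLR3 and TLR5. CD14 and TLR4 still overlapped.

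The pathway around the members was followed in 8 lists of genes by role, with 107 genes in all, of which 106 were in the table. These lists were chosen with earlier results of these data known. The main test took in 81 of them and called 53 higher (65.4%) and 6 lower (7.41%), against 32.7% and 32.8% of all genes tested, with a median log2 fold change of 0.77 against -0.01. Of the 81, 10 had no untreated library at the FPKM minimum and 0 had no PMA library at it, so the count of higher genes includes 10 that had to differ to be tested. For a second view, also chosen after the data were seen, 77 genes of the table were annotated to the KEGG Toll-like receptor pathway. Of 59 tested 40 were higher (67.8%) and 2 lower (3.39%), against the same 32.7% and 32.8%, with a median of 0.70. Of these 59, 6 had no untreated library at the FPKM minimum and 0 had no PMA library at it, so these 6 had to differ to be tested.

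Among the other TLRs and the cofactors that fold, transport or assist receptors, 11 of 16 genes in the table were tested, and 5 were higher and 3 lower. These are 45.5% and 27.3% of the tested genes, near the 32.7% and 32.8% of all genes, and the median log2 fold change was 0.38. UNC93B1, which carries the endosomal TLRs from the endoplasmic reticulum, rose from 27.1 ± 2.58 to 60.4 ± 5.08 FPKM (SD, n = 3 each). SLC15A3 and SLC15A4, transporters of the endolysosome, rose by 1.92 (SE 0.22) and 0.53 (SE 0.10) on the log2 scale, and GRN, which encodes progranulin, by 1.10 (SE 0.12). HMGB1, a chromatin protein that can act as a ligand once released, fell by 1.08 (SE 0.09), RFTN1 by 0.34 (SE 0.08) and TASL, the adaptor that links SLC15A4 to IRF5, by 0.33 (SE 0.10). TLR9, the endosomal receptor for DNA, was at 4.41 ± 0.218 FPKM untreated and 4.80 ± 0.798 after PMA (SD, n = 3 each), and its log2 difference of 0.15 was not called (adjusted p = 0.362 by edgeR). Its values are uncertain, since 99.7% of its exonic bases lie in another protein-coding gene model on the same strand. TLR10 held 0, 0 and 12 estimated counts untreated and 12, 14 and 14 after PMA and was not tested.

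All 3 tested adaptors of 5 were higher, against 32.7% of all genes, with a median log2 fold change of 1.11. PIK3AP1, the adaptor that links TLRs to PI3 kinase, rose by 1.44 (SE 0.09). TICAM1, the adaptor of TLR3, rose by 1.11 (SE 0.09), and TIRAP, which bridges TLR2 and TLR4 to MYD88, by 0.48 (SE 0.12). TICAM2, which bridges TLR4 to TICAM1, was at 0.114 FPKM untreated and 0.883 after PMA and was below the minimum, but the wider test called it higher, by 2.86 on the log2 scale (SE 0.70, adjusted p = 0.00978 by edgeR).

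Of the 24 kinases and ubiquitin ligases that act below MYD88 and TRIF, 23 were tested, and 11 were higher (47.8%) and 3 lower (13.0%), against 32.7% and 32.8% of all genes. Of the 23, 1 (IRAK2) had no untreated library at the FPKM minimum, so that it had to differ to be tested. The median log2 fold change was 0.23, and it was 0.14 in the wider test and 0.12 with no filter. IRAK2 rose by 2.43 (SE 0.20), whereas IRAK4, the kinase that binds MYD88 first, had a log2 difference of 0.23 (SE 0.11) that was not called (adjusted p = 0.0978 by edgeR). RIPK1 rose by 1.67 (SE 0.10), the ubiquitin ligase PELI1 by 1.36 (SE 0.12) and TRAF6, the ligase that passes the signal from the IRAKs to TAK1, by 1.06 (SE 0.13). BTK, UBE2N and UBE2V1 fell by 0.43 (SE 0.08), 0.43 (SE 0.07) and 0.38 (SE 0.07). UBE2N and UBE2V1 form the conjugating enzyme that works with TRAF6. With the replicate number as a block, 6 of the list were called lower in place of 3, as with DESeq2 and with edgeR's own filter.

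Of 13 inhibitors of TLR signalling 11 were tested, and 7 were higher (63.6%, against 32.7% of all genes) and none lower. The median log2 fold change was 1.00, but 0.34 over all 13 with no filter, and 2 of the 11 had no untreated library at the FPKM minimum. TNFAIP3 (A20), which removes ubiquitin chains from TRAF6, rose from 0.864 ± 0.0684 to 15.6 ± 0.507 FPKM (SD, n = 3 each), a log2 fold change of 4.20 (SE 0.09). SOCS1 rose by 3.75 (SE 0.44), the MAP kinase phosphatase DUSP1 by 2.86 (SE 0.27) and the deubiquitinase CYLD by 2.00 (SE 0.13). SOCS1 and TNFAIP3 had untreated means below 1 FPKM.

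Endosomal proteases, some of which cleave TLRs in the endosome into their signalling form, were higher for 4 of 5 tested genes, against 32.7% of all genes, and lower for none, with a median log2 fold change of 1.48. CTSL rose by 3.04 (SE 0.15), CTSB by 1.76 (SE 0.09), CTSH by 1.48 (SE 0.12) and CTSS by 1.23 (SE 0.08).

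Receptor chains of the interleukin-1 family, which also signal through MYD88, were mostly too low to test. Of 6 chains 2 were tested, and IL1R1 rose by 2.06 (SE 0.15) from an untreated mean below 1 FPKM. No untreated library of IL1R1 reached the FPKM minimum, so that it had to differ to be tested. The median over the 2 was 1.14 but turned to -0.31 over the 4 chains of the wider test and to -0.34 over all 6 with no filter. IL1RAP had a log2 difference of 0.22 (SE 0.10) that was not called (adjusted p = 0.0842 by edgeR) but was called with the replicate number as a block and without PMA replicate 1, which made 2 of the chains higher. It was named after its values were seen.

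All 14 transcription factors and regulators at the end of the pathway were tested, 11 were higher (78.6%, against 32.7% of all genes) and none lower, and the median log2 fold change was 1.12. Of the 14, 1 (NFKBIZ) had no untreated library at the FPKM minimum, so that it had to differ to be tested. IRF7, the interferon regulatory factor that MYD88 recruits below TLR7 and TLR9, rose from 1.04 ± 0.220 to 69.4 ± 7.12 FPKM (SD, n = 3 each), a log2 fold change of 6.06 (SE 0.17). FOS rose by 2.57 (SE 0.13), NFKBIZ by 1.90 (SE 0.16) and IRF1 by 1.71 (SE 0.09).

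Of 23 genes that TLR signalling induces in monocytes, 12 were tested, 11 were higher and none lower, with a median log2 fold change of 2.95. Of the 12, 5 had no untreated library at the FPKM minimum, so that the share of 91.7%, against 32.7% of all genes, includes genes that had to differ. The median includes them too. The wider test called 13 of 20 higher (65.0%, against 25.9% of its genes), with a median of 2.235. With no filter 13 of 23 were called higher (56.5%, against 13.9%), with a median of 2.24. CXCL8 and IL12A, named after their values were seen, were called in the main test but not in the wider test (adjusted p = 0.0608 and 0.11 by edgeR). The chemokine gene CXCL10 had no counts in the untreated libraries and 1383 after PMA, at least 135.5-fold higher against a floor of 12 counts over the untreated group. CCL2 rose by 5.59 (SE 0.29), CCL3 by 4.68 (SE 0.32) and CCL4 by 3.95 (SE 0.35).

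**Figure D4:**
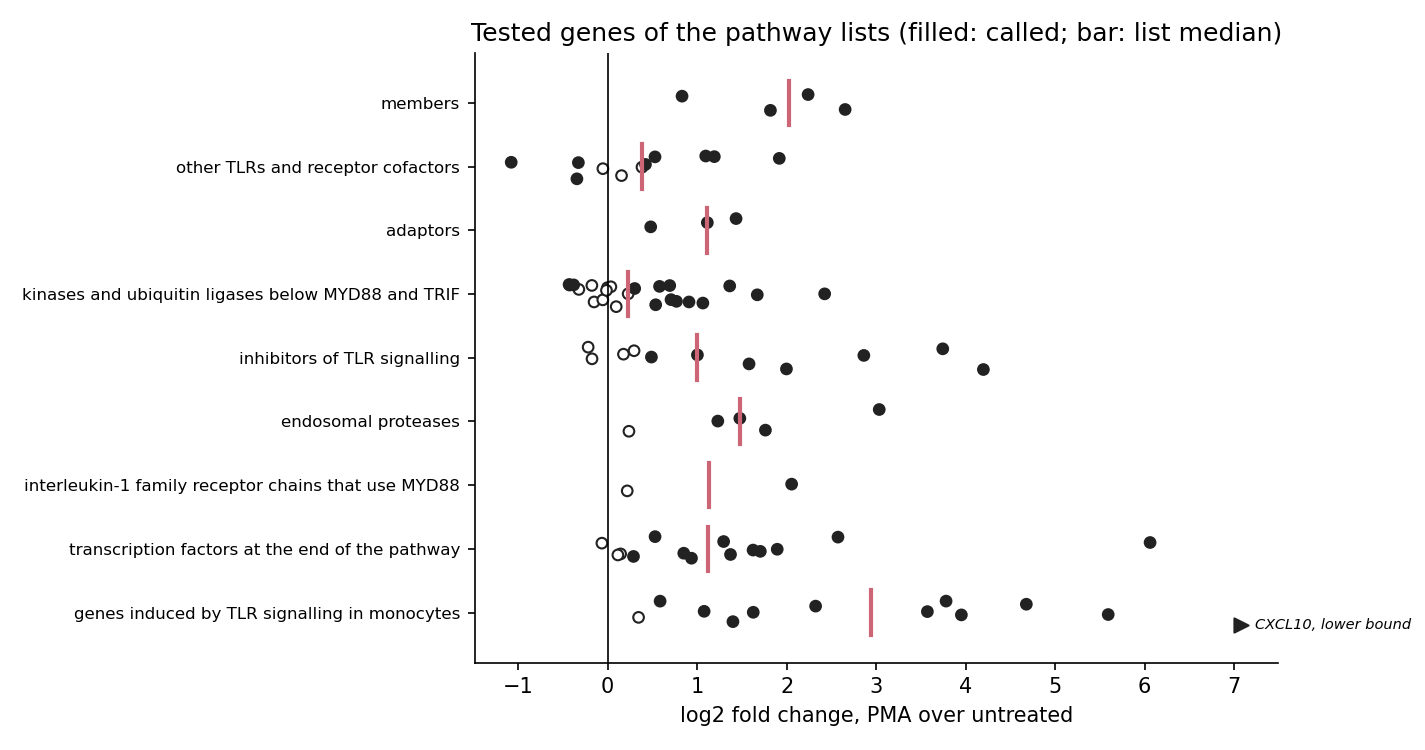
Log2 fold change of PMA over untreated libraries by edgeR for each tested gene, with 1 row for each list (filled points, called; open points, not called; bars, list median), and CXCL10 drawn as a triangle at its lower bound. The kinases and ubiquitin ligases centre on 0.23, the inhibitors on 1.00 and the induced genes on 2.95, and IRF7 is the rightmost of the transcription factors at 6.06. Of the 12 induced genes, 5 had no untreated library at the FPKM minimum and had to differ to be tested.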

How the data were processed

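RNA-seq of 6 THP-1 libraries was analysed, and the members and lists were chosen with earlier results of these data known. The authors deposited 1 table that gives, for each of 35424 features, estimated counts and FPKM values. The deposited estimated counts are whole numbers and were used as they are. The deposited FPKM values are corrected for gene length and for library size. In the submitters' processing notes the genome build is hg38 and the only tool listed is DESeq2. The sources used here do not name the aligner, the counter, the annotation release or whether strand was used. Of features that shared a name, only that with the most counts on average was kept, leaving 35042.

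The main test was the quasi-likelihood test of edgeR 4.0.16 (R 4.3.3) with TMM factors and treatment as the only term, on genes that reached an FPKM of 1 in 3 or more libraries, with Benjamini-Hochberg adjustment over all of them. SEs were taken as the fold change over the square root of F. The test was tried on simulated data before use. Alternatives were DESeq2 1.42.0, other filters and size factors, limma 3.58.1 on log2(FPKM + 0.1, 1 or 5), leaving out each library, adding PMA replicates 2 and 3 together, and a replicate block. Dividing the counts by 4, and repeating the filterByExpr fit (the wider test) with libraries left out or with the block, were chosen after seeing the data. Deviations from the group mean correlated across genes between libraries that share a replicate number (r = 0.521, 0.175 and 0.138). The labels share the numbers but do not say that the libraries are paired. The crossed pairs of replicates 2 and 3 correlated more (untreated 2 with PMA 3, r = 0.29, and untreated 3 with PMA 2, r = 0.227). Only replicates 1 matched their own number best, so pairing by number was not established. The replicate block was run as an alternative to the main test, which has treatment as its only term. Named genes were all 10 members and, from each list, up to 4 called genes with the largest rise and up to 4 with the largest fall, plus 8 receptors, adaptors, cofactors and kinases whatever their values. Exonic overlaps were read from GENCODE v44. Columns of Gene Ontology terms were not used here.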

Additional observations from a re-analysis of the deposited data

How the results depend on the processing

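The number of members called higher was 4 in the main test, 8 with filterByExpr, 7 with DESeq2 and 7 with no filter, since these fits take in members below the FPKM minimum. No member was called lower or changed sign in any fit run. TLR1, TLR2, TLR6 and MYD88 were called in all 24 fits run on each, with log2 fold changes of 0.30 to 2.99, 0.43 to 0.89, 0.58 to 1.89 and 1.64 to 2.27, and the lowest of each came from limma on log2(FPKM + 5). Of 11 fits each, TLR3 and TLR7 were called in 11, TLR4 in 8, CD14 in 3 and TLR5 in none. With the replicate block the members called higher stayed at 4, TLR2 at 0.83 and MYD88 at 2.24 on the log2 scale, and beyond the kinase and interleukin-1 receptor lists it moved no count of calls by more than 1.5 times. The pathway genes called higher were 49 to 58 and those called lower 5 to 9 over the alternatives, and 49 to 55 and 5 to 7 with 1 library left out. The untreated order of levels changed for 2 members without untreated replicate 2 and for 0 to 2 members without any 1 untreated library. Levels below about 0.1 FPKM rest on few counts, which limits TLR3, TLR5, TLR7 and TLR8.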
